A study of Mus musculus with 2 samples.

Results

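Platelet-derived growth factor (PDGF) signalling is described here through its 6 genes in the mouse colon, the 4 ligand genes Pdgfa, Pdgfb, Pdgfc and Pdgfd and the 2 receptor genes Pdgfra and Pdgfrb. They were chosen by name and not by a cut on a measured value, but with earlier results of these data known. All 6 were listed among the 17809 genes of a wild-type library and among the 15972 genes of a reporter library. The PDGF chains are secreted as disulfide-linked dimers that bring a pair of receptor tyrosine kinases together. PDGF-AA and PDGF-CC act through the receptor encoded by Pdgfra, PDGF-DD mainly through the one encoded by Pdgfrb, and PDGF-BB through either. PDGF-B made by endothelium is known for recruiting pericytes to small vessels, and PDGF-A made by gut epithelium for acting on the Pdgfra-positive mesenchyme beneath it.

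The wild-type library (V3 kit) came from C57BL/6 mice. Epithelial cells, sorted as positive for EpCAM, and other cells, sorted as negative for it, were mixed in equal parts before loading after CD45-bearing immune cells had been gated out of each, so the share of the library that each tissue fraction takes was set by the mix. The reporter library (V2 kit) came from Pdgfra-H2B-eGFP mice, in which a nuclear histone H2B-eGFP fusion is expressed from the Pdgfra locus. How many copies of Pdgfra carried the reporter in these mice was not given in the sources used here, which bears on every reporter Pdgfra value. Its cells were sorted for GFP from the mesenchymal fraction with a viability stain and no EpCAM or CD45 staining. All mice were female and 8 to 12 weeks old, no treatment was given to either group, and cells of 3 mice were pooled per library. No map from cells to mice was used, so each genotype is 1 library, no comparison has a replicate, and no p-value is given. Genotype, kit and sort differ together between the libraries, so levels were compared within a library only, and the question asked of the data is which cells hold transcripts of each ligand and of each receptor.

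**Figure D1:**
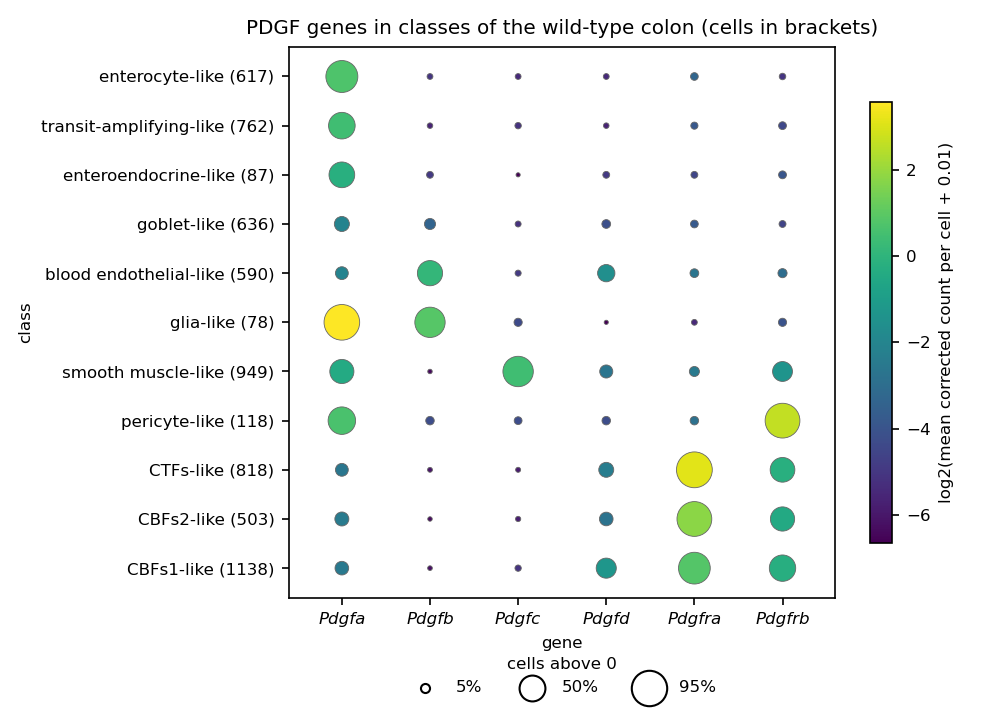
Class mean of the corrected count (colour, log2 after adding 0.01) and share of cells above 0 (dot area) of the 6 PDGF genes (columns) in 11 classes of the wild-type colon (rows, cells in brackets). Pdgfb is above 0 in 47.5% of blood endothelial-like and 69.2% of glia-like cells, and Pdgfc in 69.7% of smooth muscle-like cells. Pdgfra is above 0 in 97.2% of CTFs-like cells and Pdgfrb in 91.5% of pericyte-like cells.

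The wild-type library held 7495 cells and the reporter library 4409, with 1 cell barcode in common. The deposited values are not raw molecule counts but counts corrected by the authors for the depth of each cell. They summed to 6120 to 16389 per cell in the wild-type library (median 2804 genes per cell) and to 2314 to 4432 in the reporter library (median 1381 genes per cell). Mitochondrial genes took more than 10% of the corrected counts in 3043 wild-type cells and in 0 reporter cells. The authors had kept reporter cells only below 10% and wild-type cells up to a higher limit, so this contrast was set largely by their filters. Cells were clustered with the 6 genes and the pathway genes named further on left out of the clustering, and classes were named from other marker genes with the ending "-like". CTFs and CBFs are the crypt top and crypt bottom fibroblasts of the study, the latter in 2 kinds, CBFs1 and CBFs2. From these same libraries, the study described CTFs as high and CBFs as low in Pdgfra. Several of the markers that named the classes here are genes it reported for those cells. A level is a class mean, the average corrected count over its cells. A ratio is the log2 of 2 class means with a 95% interval from the counts behind them, and a share is the percentage of cells above 0 with an exact (Clopper-Pearson) 95% interval. A share of 0 is given instead with the share that 3 cells of the total would make, which is lower than the upper Clopper-Pearson bound. The intervals of ratios treat corrected counts as if they were molecule counts and leave out the spread between cells of a class. All these intervals cover counting error only, not differences between mice.

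In GENCODE M21 on GRCm38, Pdgfa spans 138976014 to 138997370 on the minus strand of chromosome 5 and Pdgfra 75152292 to 75198215 on the plus strand of the same chromosome. Pdgfb spans 79995874 to 80014977 on the minus strand of chromosome 15, Pdgfc 81036416 to 81214040 on the plus strand of chromosome 3, and Pdgfd 6168584 to 6378850 on the plus strand of chromosome 9. Pdgfrb was placed in the same annotation but its position is not used here. The bases before the RefSeq start of Pdgfra are shown because the reporter of the second library is expressed from this locus. Of the 6 genes, 4 had a promoter entry. The window is 250 bases long, is written 5′ to 3′ on the plus strand of GRCm38.p6 at chr5:75152001-75152250, and has no capitals because no searched motif was found in it.
Pdgfra, upstream window: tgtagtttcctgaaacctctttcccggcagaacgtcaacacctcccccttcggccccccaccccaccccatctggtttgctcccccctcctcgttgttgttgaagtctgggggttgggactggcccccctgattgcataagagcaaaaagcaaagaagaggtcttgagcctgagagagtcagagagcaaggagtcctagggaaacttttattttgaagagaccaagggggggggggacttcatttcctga
Its GC content was 54.4%, against a median of 52.4% over 32851 windows of the same length. Neither strand held the GC box letters GGGCGG, which occurred in 32.7% of those windows, or the TATA box letters TATAAA, which occurred in 12.4%. This says only that these letters are not in the window.

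Among the ligands, Pdgfa, whose product forms the AA dimer, was at its highest summed count in the epithelium, which held 50.5% of all Pdgfa corrected counts in the wild-type library. The mean over the 2477 epithelial cells was 1.13 and 52.5% of them were above 0 (50.5% to 54.5%). Enterocyte-like cells, the absorptive lineage, had a mean of 1.64 with 77.1% of 617 cells above 0 (73.6% to 80.4%). Transit-amplifying-like cells, the dividing cells of the crypt, had a mean of 1.34 with 53.0% of 762 cells above 0 (49.4% to 56.6%). Goblet-like cells, the mucus-secreting lineage, were lowest of the named epithelial classes at a mean of 0.225, with 16.0% of 636 cells above 0 (13.3% to 19.1%). The epithelial types therefore did not share 1 level: the intervals of the enterocyte-like and goblet-like shares were far apart, while enteroendocrine-like cells, the hormone-secreting lineage, at 49.4% of 87 cells (38.5% to 60.4%), overlapped the transit-amplifying-like interval.

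When the epithelial cells were clustered again on their own, the Pdgfa gradient became finer. It was highest in an enterocyte-like sub-cluster led by Atp12a and Saa1, with a mean of 2.22 and 91.1% of 192 cells above 0 (86.2% to 94.8%). A second enterocyte-like sub-cluster, led by Dhrs9 and Emp1, had a mean of 1.41 and 74.1% of 343 cells above 0, and its interval of 69.1% to 78.6% did not meet that of the first. A sub-cluster led by Krt36 and Defb45, which matched no marker list, lay beside the second at 1.42 and 72.5% of 378 cells. A sub-cluster led by Nr2e3 and DNA replication genes such as Mcm6, given no name, had a mean of 1.53 and 59.5% of 476 cells above 0 (54.9% to 63.9%), so its mean was near that of the second enterocyte-like sub-cluster and its share was lower. At the other end, the Zg16-led goblet-like sub-cluster had a mean of 0.301 and 21.1% of 299 cells above 0. An unnamed sub-cluster with B3gnt6, Tff2 and Muc2 among its leading genes had a mean of 0.116 and 8.22% of 292 cells above 0 (5.34% to 12%). Genes per cell had medians of 3127 and 3388.5 in these last sub-clusters and 2882.5 and 2928 in the enterocyte-like ones, and their part in the difference was not tested.

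**Figure D2:**
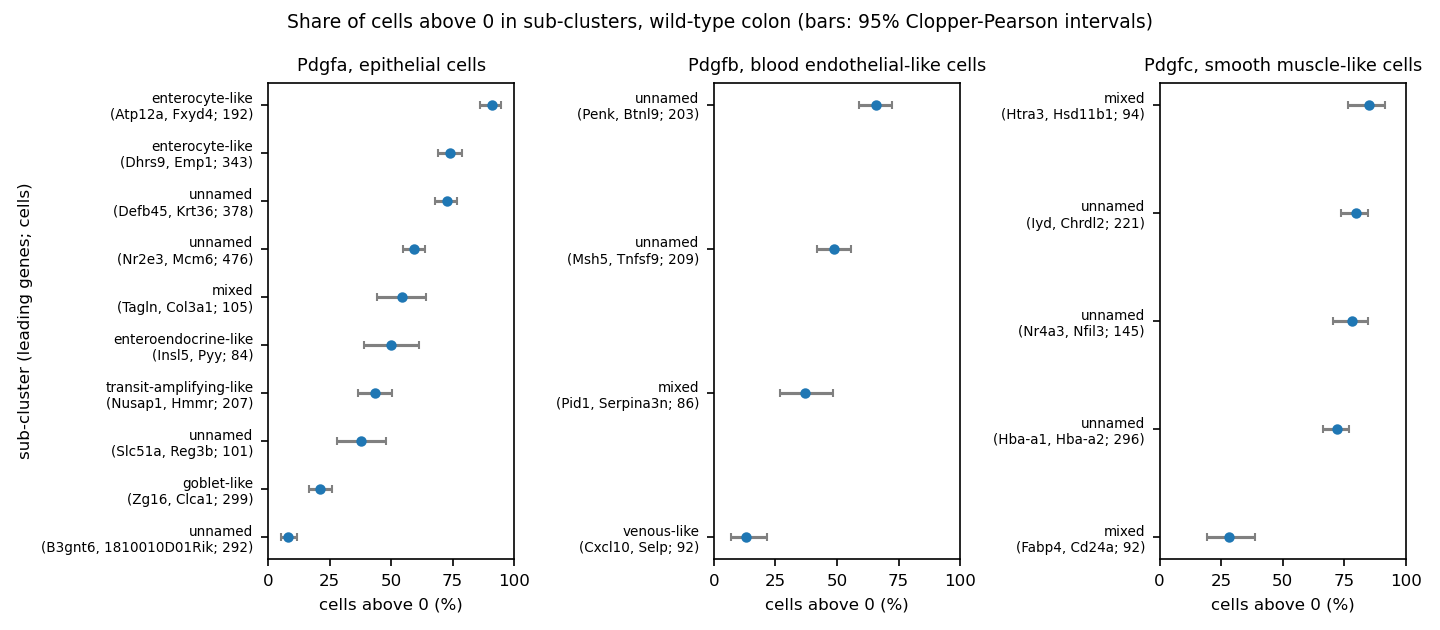
Share of cells above 0 (horizontal axis, %) of Pdgfa in 10 epithelial, Pdgfb in 4 blood endothelial-like and Pdgfc in 5 of 6 smooth muscle-like sub-clusters of the wild-type library (rows, leading genes and cells in brackets, bars 95% Clopper-Pearson intervals). Pdgfa runs from 8.22% to 91.1% within the epithelium, Pdgfb from 13.0% to 66.0% within the endothelium, and Pdgfc from 28.3% to 85.1% in the muscle sub-clusters drawn.

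Outside the epithelium Pdgfa was highest per cell in the small glia-like class, cells of the enteric nervous system. Its mean there was 11.9, with 96.2% of 78 cells above 0 (89.2% to 99.2%), and this class held 16.8% of the Pdgfa corrected counts of the library. Glia-like over epithelial cells the log2 ratio was 3.4 (3.29 to 3.51). Pericyte-like cells, named after the cells that wrap small vessels, had a mean of 1.54 with 56.8% of 118 cells above 0 (47.3% to 65.9%). This class was led by Pln, Colec11 and Vtn, of which Vtn is in the pericyte list. Rgs5 and Ndufa4l2 of that list were instead among the leading genes of an unnamed cluster of 101 cells, and Notch3 of both. The name is therefore provisional. Smooth muscle-like cells had a mean of 0.730 with 43.3% of 949 cells above 0 (40.1% to 46.5%). Fibroblasts and endothelium were low: the mean was 0.153 in CTFs-like cells with 11.4% above 0 (median 2436 genes per cell) and 0.225 in blood endothelial-like cells with 11.4% above 0 (median 2053.5). The goblet-like and blood endothelial-like means, both 0.225, are neighbours in the order that did not differ. After each cell was thinned to 2000 corrected counts, 91.0% of glia-like, 30.5% of pericyte-like and 29.5% of enterocyte-like cells were above 0, against 3.18% of CTFs-like cells.

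The glia-like class carried 5 of its 6 defining markers in most of its cells, and the pericyte, blood endothelial and immune marker sums there averaged 0.167, 0.667 and 0.449 per cell against 35.0 for the glia list. Fibroblast markers, which are abundant in this library, averaged 28.8 per cell in the same class and 273 in the CBFs-like cells. Pdgfra, which CBFs-like cells carried at a mean of 2.31, was at 0.0128 in glia-like cells.

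Pdgfb, whose product forms the BB dimer, had most of its counts in the blood endothelial-like class, a share that depends on class sizes. Its class mean was higher in the small glia-like class, given below. The mean over 590 blood endothelial-like cells was 1.07, with 47.5% above 0 (43.4% to 51.6%), and they held 62.1% of the Pdgfb corrected counts of the library. The log2 ratio over epithelial cells was 5.07 (4.73 to 5.43), or 33.6-fold. In fibroblasts and muscle almost no Pdgfb was found: the share above 0 was 0.351% for CBFs1-like cells, 0.489% for CTFs-like cells and 0.211% for smooth muscle-like cells, the last from 2 corrected counts in 949 cells. These classes had more genes per cell (medians 2684.5, 2436 and 2622) than the endothelium (2053.5), so they serve as the background for the endothelial share.

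Within the endothelium Pdgfb differed between sub-clusters. It was highest in a sub-cluster led by Penk and Btnl9, with a mean of 1.67 and 66.0% of 203 cells above 0 (59.0% to 72.5%). A sub-cluster led by Msh5 and Tnfsf9 had a mean of 1.07 and 48.8% of 209 cells above 0 (41.8% to 55.8%). In the venous-like sub-cluster, with Selp and Ackr1 of the vein list, the mean was 0.141 and 13.0% of 92 cells were above 0 (6.93% to 21.7%). The venous-like interval met neither of the others. Genes per cell had a median of 2629 in the venous-like sub-cluster and of 2022 and 2017 in the others, and their part was not tested.

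Glia-like cells had the highest Pdgfb mean of the named classes, 1.83, with 69.2% of 78 cells above 0 (57.8% to 79.2%). Their log2 ratio over epithelial cells was 5.85 (5.44 to 6.26). The blood endothelial markers summed to 0.667 per cell in that class and to 75 in the blood endothelial-like class, and the part of endothelial RNA in its Pdgfb was not tested. In the epithelium Pdgfb was low but uneven: goblet-like cells had 8.18% of cells above 0 (6.17% to 10.6%), against 1.30% of enterocyte-like (0.561% to 2.54%) and 1.05% of transit-amplifying-like cells (0.454% to 2.06%). The goblet-like class was thus low for Pdgfa and high for Pdgfb relative to its epithelial neighbours, at means of 0.225 and 0.0849.

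Pdgfc, whose product is secreted in a latent form and cleaved outside the cell, was found in smooth muscle-like cells and scarcely elsewhere. Their mean was 1.36 with 69.7% of 949 cells above 0 (66.6% to 72.6%), and they held 90.6% of the Pdgfc corrected counts of the library. The log2 ratio was 6.63 over epithelial cells (6.14 to 7.16) and 6.42 over CBFs-like cells (5.86 to 7.04). In every other named class of at least 50 cells the share above 0 was at most 3.85%, including pericyte-like cells at 3.39% (0.931% to 8.45%), and in enteroendocrine-like cells it was 0 of 87. Within the muscle, 4 of the 6 sub-clusters had 72.0% to 85.1% of cells above 0. A sub-cluster that also carried all 8 epithelial markers had a mean of 0.663 with 28.3% of 92 cells above 0 (19.4% to 38.6%) at a median of 1717.5 genes per cell.

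Pdgfd, the other latent ligand, was found in fibroblasts, endothelium and muscle. CBFs1-like cells had a mean of 0.402 with 29.7% of 1138 cells above 0 (27.1% to 32.5%), CTFs-like cells 0.186 with 15.9% (13.5% to 18.6%), and CBFs2-like cells 0.139 with 12.9% (10.1% to 16.2%). The CBFs1-like interval stood apart, and the other two overlapped. In blood endothelial-like cells the mean was 0.320 with 21.7% above 0 (18.4% to 25.2%), and among their sub-clusters the one led by Penk and Btnl9 had 33.0% and the venous-like one 5.43%, the order seen for Pdgfb. Smooth muscle-like cells had 11.8% (9.82% to 14.0%), epithelial cells 2.34% (1.78% to 3.02%) at a higher depth (median 3221 genes per cell), and glia-like cells 0 of 78, which allows a share of up to 3.85%. The Pdgfd log2 ratio over epithelial cells was 3.77 for the endothelium (3.34 to 4.22) and 2.63 for the muscle (2.18 to 3.1).

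Side by side, the highest mean of the named classes was in glia-like cells for both Pdgfa and Pdgfb. It was in smooth muscle-like cells for Pdgfc and in CBFs1-like cells for Pdgfd. A gene was counted in a comparison where either class mean reached 0.05, and called where the ratio reached 2-fold. Between blood endothelial-like and epithelial cells 58.4% of 11674 counted genes were called, 15.1% as higher and 43.3% as lower in the endothelium, and 5 of the 5 PDGF genes counted were called, Pdgfb and Pdgfd higher and Pdgfa lower (log2 ratio -2.32) among the ligands. Between smooth muscle-like and epithelial cells 57% of 11902 were called, 17.4% as higher and 39.6% as lower in the muscle, and 4 of the 5 PDGF genes counted, with Pdgfc and Pdgfd higher. For Pdgfa that ratio was -0.63 (-0.75 to -0.51), short of 2-fold. With backgrounds this high, a call between tissues is common to most genes, and these counts say nothing particular to the PDGF genes. Pdgfb in muscle rests on 2 corrected counts, with a log2 ratio of -3.92 and an interval of -6.99 to -2.02.

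Pdgfra, the receptor for the A and C chains, was a fibroblast gene in the wild-type library: CTFs-like cells held 61.2% of its corrected counts and CBFs-like cells 33.0%. The mean was 8.60 in CTFs-like cells, 3.45 in CBFs2-like cells, 1.80 in CBFs1-like cells and at most 0.169 in every other named class. Shares above 0 were 97.2% of 818 CTFs-like (95.8% to 98.2%), 91.7% of 503 CBFs2-like (88.9% to 93.9%) and 76.1% of 1138 CBFs1-like cells (73.5% to 78.6%), and none of these intervals met. Per cell, the median was 8 in CTFs-like cells (10th to 90th percentile 3 to 15), 3 in CBFs2-like cells (1 to 6) and 1 in CBFs1-like cells (0 to 4). A corrected count of 8 or more was reached by 52.6% of CTFs-like, 6.96% of CBFs2-like and 0.879% of CBFs1-like cells, so the classes were graded and their ranges overlapped.

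The CTFs-like over CBFs-like log2 ratio of Pdgfra was 1.90 (1.84 to 1.95), or 3.72-fold. It was 2.25 against CBFs1-like cells alone (2.18 to 2.32) and 1.32 against CBFs2-like cells alone (1.24 to 1.39), and CBFs2-like over CBFs1-like cells it was 0.94 (0.84 to 1.03). Of 10036 counted genes 14.4% were called between CTFs-like and CBFs-like cells, 5.83% as higher and 8.56% as lower in CTFs-like cells, and Pdgfra was the only one called of the 4 PDGF genes counted. Its ratio was larger than that of 97.4% of the counted genes. The study set these classes apart by Pdgfra level in the same data, so the Pdgfra call is no independent support for a difference.

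**Figure D3:**
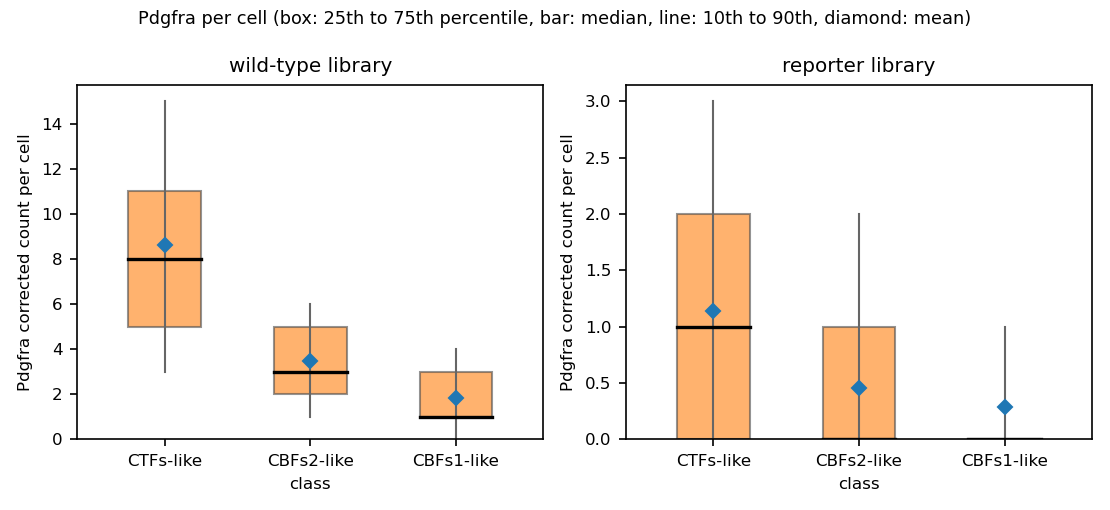
Pdgfra corrected count per cell (vertical axis) in CTFs-like, CBFs2-like and CBFs1-like cells of the wild-type (left) and reporter library (right), with the 25th to 75th percentile as a box, the median as a bar, the 10th to 90th as a line and the mean as a diamond. The means fall from 8.60 to 3.45 to 1.80 in the wild-type library and from 1.14 to 0.455 to 0.287 in the reporter library, whose axis and depth differ.

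In the reporter library, where every cell was sorted for expression from this locus, the order of the class means was again CTFs-like, CBFs2-like and CBFs1-like. Pdgfra had a mean of 1.14 in 519 CTFs-like cells with 60.9% above 0 (56.5% to 65.1%), 0.455 in 850 CBFs2-like cells with 30.8% (27.7% to 34.0%), and 0.287 in 2642 CBFs1-like cells with 24.0% (22.3% to 25.6%). The CTFs-like over CBFs-like log2 ratio was 1.80 (1.65 to 1.94), beside 1.90 in the wild-type library. Of 7172 counted genes 14.6% were called, 7.52% as higher and 7.07% as lower, and Pdgfra was again the only one of the 4 PDGF genes counted that was. The groups of GFP-sorted cells that carried other markers also held some: 12.3% of 114 immune-like cells (6.88% to 19.7%, median 1220 genes per cell) and 11.3% of 53 epithelial-like cells (4.27% to 23.0%, median 1569) were above 0. These cells passed the same GFP sort, so their shares are not a clean background for the fibroblasts, and their source was not tested. The CBFs1-like interval (median 1391.5 genes per cell) lay above the immune-like one and overlapped the wider epithelial-like one. Most GFP-sorted cells of the CBFs-like classes thus had no Pdgfra count at this depth, which does not show that they lack it.

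Finer clustering, at a resolution of 0.8, divided the wild-type CTFs-like cells in a way that both receptor genes followed. A cluster of 229 cells led by Lpar3, Dmp1 and Trpa1 had a Pdgfra mean of 11.4 and a Pdgfrb mean of 1.45, and the main cluster of 580 cells, led by Fam180a and Sox6, had means of 7.53 and 0.664. The Pdgfrb shares were 65.9% (59.4% to 72.1%) and 38.6% (34.6% to 42.7%). Genes per cell ran the same way, with medians of 2899 and 2270, and their part in the difference was not tested. In the reporter library the cluster of 231 cells led by Ptprr, Il1rl1 and Nrg1 fell under no fibroblast name, and had a Pdgfra mean of 0.801 with 48.9% above 0 (42.3% to 55.6%) and a Pdgfrb mean of 0.307 with 27.3% above 0 (21.6% to 33.5%). At the finer resolution a cluster of 124 cells led by Ptprr, Il1rl1 and Nrg1 had a Pdgfra mean of 1.29 and a share of 72.6% (63.8% to 80.2%), beside 1.14 and 60.7% (56.3% to 64.9%) in the 516 CTFs-like cells. Also at this resolution, 35 wild-type fibroblasts led by Cox8b, Ptn and Gdf10 had a Pdgfra mean of 5.86. Another 134 led by Col6a5, Hcar2 and Lef1 had the highest Pdgfd mean of the fibroblast clusters, 0.612 with 38.1% above 0 (29.8% to 46.8%). In 156 wild-type fibroblasts of no named type, led by C3, Pi16 and Dpt, 57.1% of cells had neither receptor gene above 0. Their median was 1729 genes per cell.

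Away from the fibroblasts, Pdgfra was near background. Epithelial cells had 3.03% above 0, blood endothelial-like cells 4.58%, pericyte-like cells 4.24% and smooth muscle-like cells 6.43% (4.95% to 8.18%). Much of this sat in small sub-clusters that carried markers of a second lineage. In the epithelium it was 105 cells with all 8 fibroblast markers (Pdgfra mean 1.29), and in the muscle 94 cells led by Htra3 with 4 of the 8 (mean 1.43). Without such mixed sub-clusters the shares were 0.801% of epithelial (0.483% to 1.25%), 1.39% of blood endothelial-like (0.560% to 2.84%) and 2.36% of smooth muscle-like cells (1.40% to 3.70%). Smooth muscle-like over CBFs-like cells the Pdgfra log2 ratio was -3.78 (-4.01 to -3.55) and -6.32 without those cells, a choice made after seeing the data, so the size of this ratio rests on them and its direction does not.

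Pdgfrb, the receptor for the B and D chains and a standard marker of mural cells, was highest per cell in pericyte-like cells. Their mean was 6.17 with 91.5% of 118 cells above 0 (85.0% to 95.9%), and the log2 ratio over CBFs-like cells was 2.95 (2.82 to 3.09). The name of this class is provisional, as said above. In the unnamed cluster of 101 cells with Rgs5 among its leading genes, Pdgfrb without Pdgfra was above 0 in 83.2% of cells. In the fibroblasts the mean was 0.870 for CTFs-like cells, 0.839 for CBFs1-like cells and 0.7 for CBFs2-like cells, with 45.5% (42% to 49.0%), 52.1% (49.2% to 55.0%) and 43.7% (39.4% to 48.2%) above 0. The CTFs-like over CBFs-like log2 ratio was 0.13 (-0.01 to 0.26) for wild-type cells, and reporter cells gave 0.21 (-0.10 to 0.50). These intervals do not show equal levels, and since they cover counting error only, they set no upper limit on the difference. CTFs-like and CBFs1-like means were neighbours that did not differ beyond counting error (log2 ratio 0.05, -0.09 to 0.19), while the share above 0 was lower in CTFs-like cells and the intervals of the shares did not meet. Against CBFs2-like cells alone the ratio was 0.31 (0.13 to 0.50) for wild-type cells and 0.75 (0.35 to 1.15) for reporter cells, among which the CBFs2-like class also had the fewest genes per cell of the fibroblast classes, a median of 1173.5.

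Smooth muscle-like cells had a Pdgfrb mean of 0.379 with 29.0% above 0 (26.1% to 32.0%), and the log2 ratio over CBFs-like cells was -1.07 (-1.24 to -0.90). Blood endothelial-like cells had 5.08% above 0 (3.46% to 7.18%), glia-like cells 3.85%, and epithelial cells 2.66% (2.07% to 3.38%) at a median of 3221 genes per cell. With 2459 fibroblasts and 118 pericyte-like cells in the sorted mix, CBFs-like cells held 34.9% of the Pdgfrb corrected counts of the library, pericyte-like cells 19.4% and CTFs-like cells 19.0%. Between smooth muscle-like and CBFs-like cells 19.4% of counted genes were called and 5 of the 5 PDGF genes counted, Pdgfa and Pdgfc as higher. Pdgfrb was just past 2-fold, and its log2 ratio was -0.91 with cells above 10% mitochondrial counts left out, which ends its call. Between pericyte-like and CBFs-like cells 35.9% were called and 4 of the 4 counted: Pdgfrb and Pdgfa were higher, with log2 ratios of 2.95 and 3.21 (2.93 to 3.48), and Pdgfra and Pdgfd lower, with -4.18 (-5.02 to -3.46) and -2.92 (-4.55 to -1.69). The pericyte-like class also carried fibroblast markers (summed mean 43.2 per cell) and smooth muscle markers (13.9), beside 53.4 for its own list, and the part of other cells in its Pdgfa was not tested.

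Counting the receptor genes together in each cell separated stroma of several kinds. In CTFs-like cells Pdgfra and Pdgfrb were above 0 together in 45.0% of cells, Pdgfra alone in 52.2% and Pdgfrb alone in 0.489%. In CBFs1-like cells the shares were 40.1%, 36.0% and 12%, and in CBFs2-like cells 41.0%, 50.7% and 2.78%. Pericyte-like cells had Pdgfrb alone in 87.3%, both in 4.24% and Pdgfra alone in 0%, and smooth muscle-like cells had Pdgfrb alone in 25.6% and both in 3.37%. Beside the share with both stands the product of the single shares, which was 44.2% for CTFs-like, 39.7% for CBFs1-like and 40.1% for CBFs2-like fibroblasts. With Pdgfra above 0 in nearly all CTFs-like and CBFs2-like cells, the share with both can hardly leave the Pdgfrb share, so nothing is read from the likeness of these values. In the reporter library, where the shares are lower, both were above 0 in 11.4% of CTFs-like cells (product 11.3%), 4.66% of CBFs1-like cells (4.17%) and 4.47% of CBFs2-like cells (3.30%). A cell at 0 may still hold the transcript.

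**Figure D4:**
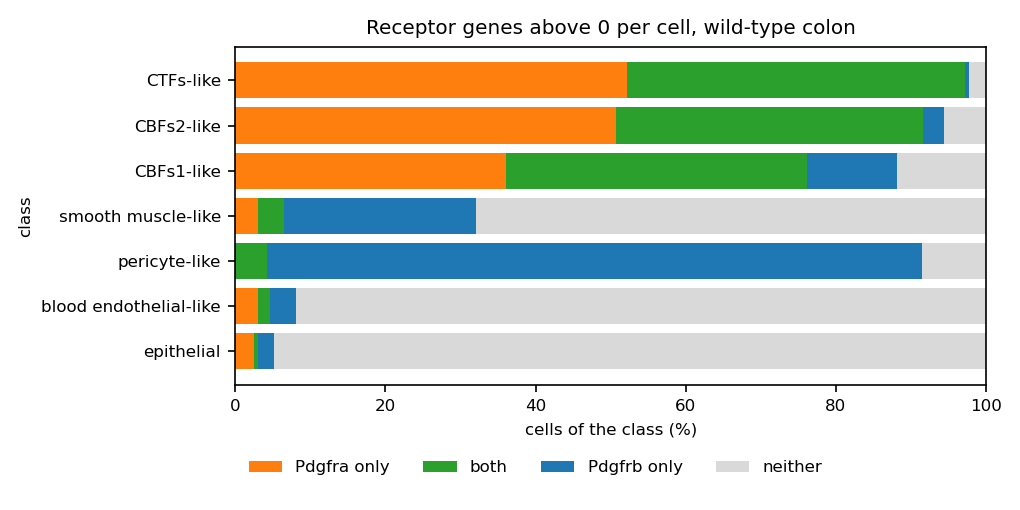
Percentage of cells (horizontal axis) with Pdgfra alone, both receptor genes, Pdgfrb alone or neither above 0 in 7 classes of the wild-type library (rows). Both were above 0 in 45.0% of CTFs-like cells, while Pdgfrb alone was in 87.3% of pericyte-like cells.

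In the reporter library the ligand genes in fibroblasts were close to the limit of the data. Pdgfd had a mean of 0.0965 in CBFs1-like cells with 9.16% above 0 (8.09% to 10.3%), 0.0597 in CTFs-like cells with 5.59% (3.77% to 7.93%) and 0.0471 in CBFs2-like cells with 4.47% (3.18% to 6.08%). The log2 ratio of Pdgfd, CBFs2-like over CBFs1-like cells, was -1.04 (-1.56 to -0.55) here and -1.53 (-1.91 to -1.16) in the wild-type library. In each library it was the only PDGF gene called of 4 counted in that comparison, beside 12% of all counted genes in the wild-type library (4.45% as lower) and 12.2% in the reporter library (7.35% as lower). Of the CBFs1-like clusters of this library, the one led by Cxcl5, Saa3 and Cxcl9 had the largest Pdgfd share, 17.3% of 543 cells (14.2% to 20.8%), against 5.93% (4.60% to 7.49%) and 8.28% (6.65% to 10.2%) in the other two. It also had the most genes per cell, a median of 1860 against 1239 and 1386. After thinning, its share was 8.47% against 3.37% and 4.69%. Pdgfa was above 0 in 4.43% of the CTFs-like class and 4.70% of the CBFs-like class, Pdgfb in 0 of 519 CTFs-like cells, which allows a share of up to 0.578%, and Pdgfc in 0.193% of them.

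The genes that carry, cleave or pass on PDGF signals were taken from lists chosen by function. Of all genes counted between CTFs-like and CBFs-like cells, 5.83% were called higher and 8.56% lower in the wild-type library. In the reporter library these shares were 7.52% and 7.07%. Among 10 carriers, processing enzymes and co-receptors, 9 were counted between CTFs-like and CBFs-like cells of the wild-type library, 1 was called higher and 3 lower, with a median log2 ratio of -0.52 against -0.07 over all counted genes. In the reporter library 7 were counted, 0 called higher and 3 lower, with a median of -0.42 against 0.17. The genes called lower in CTFs-like cells were the same 3 in both libraries. Nrp1, a co-receptor, had a log2 ratio of -2.76 for wild-type and -2.95 for reporter cells. Lrp1, a receptor that pairs with the product of Pdgfrb, had -1.40 and -1.30, and Pcsk5, a proprotein convertase, had -1.81 and -1.09. Plau, the urokinase-type plasminogen activator, named after its value was seen, was the 1 called higher, at a CTFs-like mean of 0.987 and a CBFs-like mean of 0.0311 in the wild-type library (log2 ratio 4.99, 4.58 to 5.43), and was not counted in the reporter library, at 0.0270 and 0.00458.

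The next lists stand beside the same shares of all counted genes, 5.83% higher and 8.56% lower (wild-type) and 7.52% and 7.07% (reporter). Of 19 adaptors and effectors that bind activated receptors, 19 were counted in the wild-type library, 0 were called higher and 2 lower (median log2 ratio -0.11), and of 14 counted in the reporter library 1 was lower (median 0.08). The one they shared was Fyn, a Src-family kinase, with log2 ratios of -2.07 (-2.30 to -1.86) and -2.11 (-2.71 to -1.57). Of 12 negative regulators 2 were called higher and 2 lower in the wild-type (median 0.22), and 2 higher and 0 lower of 10 counted in the reporter library (median 0.64). The 2 called higher in each were Spry2 and Spry4, Sprouty inhibitors of receptor tyrosine kinase signalling that are themselves induced by it. Spry2 had a CTFs-like mean of 2.78 and a CBFs-like mean of 1.15 in the wild-type library, a log2 ratio of 1.27 (1.18 to 1.36) beside 1.12 (1.01 to 1.23) in the reporter library. Spry4 had means of 0.540 and 0.174, a ratio of 1.63 (1.41 to 1.85) beside 1.46 (1.05 to 1.85). These inhibitors answer to other receptor tyrosine kinases as well, and no value here ties them to PDGF. Of 40 PDGF and pathway genes counted in both libraries, 7 (17.5%) were called in the same direction in both. Beside them stand 616 (8.85%) of all 6964 genes counted in both. Pdgfra, by which the study had set these classes apart, is among the 7.

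**Figure D5:**
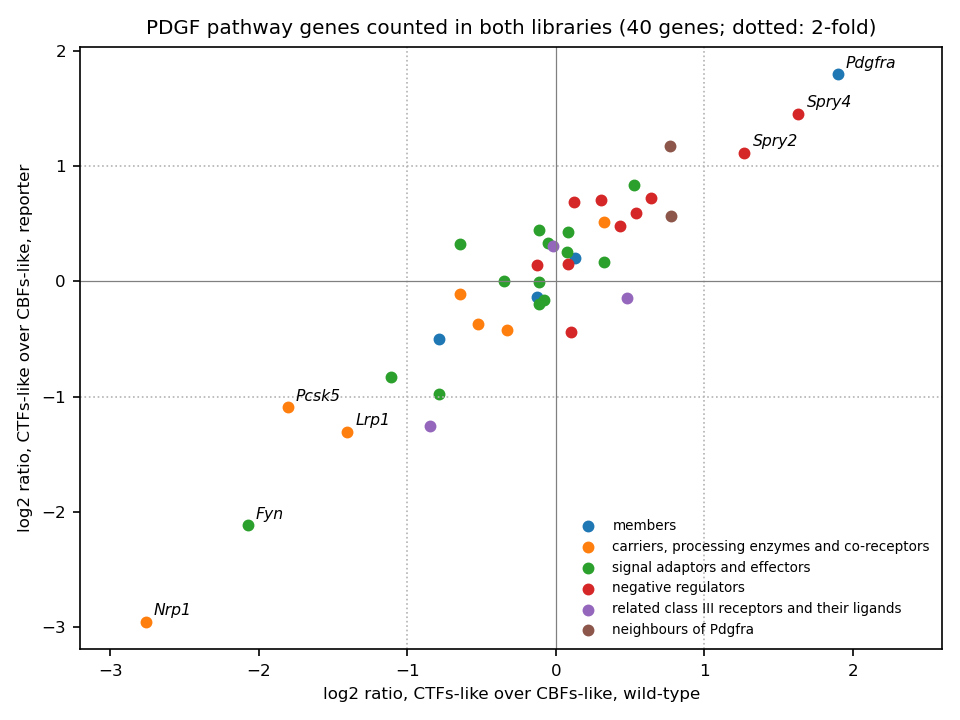
Log2 of the CTFs-like class mean over the CBFs-like class mean in the wild-type (horizontal axis) and reporter library (vertical axis) for 40 PDGF and pathway genes counted in both, coloured by list, with dotted lines at 2-fold. Pdgfra (1.90, 1.80), Spry4 (1.63, 1.46) and Spry2 (1.27, 1.12) lie past 2-fold on the CTFs-like side, and Nrp1 (-2.76, -2.95), Fyn (-2.07, -2.11), Pcsk5 (-1.81, -1.09) and Lrp1 (-1.40, -1.30) on the CBFs-like side.

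The carrier with the highest mean of its list was St14 in the epithelium and Sparc in the endothelium, the muscle, the fibroblasts, the pericyte-like and the glia-like cells. St14, which encodes matriptase, a protease that can process PDGF-D, had a mean of 1.06 in epithelial cells, 0.0678 in the endothelium and 0.0190 in the muscle. Sparc, a secreted matrix protein that binds PDGF, had 0.327 in the epithelium against 12.4 in the blood endothelium, 16.6 in the muscle, 25.8 in pericyte-like cells, 22.6 in CTFs-like fibroblasts, 35.4 in CBFs-like fibroblasts and 77.9 in glia-like cells. Between blood endothelial-like and epithelial cells 4 of 8 counted carriers were called higher and 1 lower, beside 15.1% and 43.3% of all counted genes. Between smooth muscle-like and epithelial cells 5 of 9 were higher and 2 lower, beside 17.4% and 39.6%. In all, calls in either direction came to 5 of 8 and 7 of 9 carriers, against 58.4% and 57% of all counted genes. Of the 19 adaptors and effectors, 7 were higher and 3 lower in the endothelium and 4 higher and 3 lower in the muscle. Stat3, a transcription factor that receptor kinases can activate, had means of 1.55 in blood endothelial-like, 2.08 in pericyte-like and 2.36 in glia-like cells, and Pik3r1, the p85 regulatory subunit of PI3-kinase, 0.699 in epithelial and 0.925 in CTFs-like cells.

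The genes whose level followed each PDGF gene most closely over the 12 wild-type classes of at least 50 cells were found by Pearson correlation of log2 class means after adding 0.01, as a description with no test. The classes share 1 library and their depth differs. Pdgfa went with Itpk1 (r = 0.86), Dbndd2, Vapa and Tsc22d2 (0.81), each of which was highest in glia-like cells. Pdgfb went with Adgrg6 (0.93), Sipa1l2, Fam89a, H2-K1 and Efr3b (0.86). Pdgfc went with Reep1 (0.98), Cdh6, Pde6h, Actc1 and Asb2 (0.93), each highest in smooth muscle-like cells. Pdgfd went with Prickle1 (0.93), Dchs1, Igfbp3, Piezo1 and Acox3 (0.91). Pdgfra went with Msc (0.95), Clmp, Ptges, Omd and Chrd (0.94), and Pdgfrb with Gucy1a2 (0.96), Gucy1b3, Pla2r1, Adcy3 and Abcc9 (0.94), each of these 5 highest in pericyte-like cells. Actc1, Igfbp3 and Abcc9 were among the markers that named the classes. Between the PDGF genes themselves r ran from -0.85 for Pdgfa with Pdgfd to 0.74 for Pdgfd with Pdgfra.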

How the data were processed

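Droplet single-cell RNA was read in 2 libraries, with no replicate. The authors aligned reads to mm10 with Cell Ranger, filtered and applied SCTransform in Seurat 3.1 under R 3.6.2, and the score values they deposited are depth-corrected counts in whole numbers (read from the values, since the deposited natural log values are exactly ln(1 + those numbers)). A test on counts summed per library was not possible in this unit with 1 library per genotype, so no p-value was computed. The depth sequenced is unknown because the values are already corrected for it.

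Clustering here used the natural log values that were deposited, in Seurat 5.3.0 (R 4.3.3) with 30 principal components, resolutions of 0.45 and 0.3, and 2977 and 2984 of 3000 variable features after the PDGF and pathway genes were removed. A class needed at least 50 cells. Epithelial cells and fibroblasts were named where the median cell held at least 5 markers of the lineage. The other lineages needed 3 markers at 2-fold in 10% of cells, and 2 markers in the median cell. Epithelial types also needed 3 markers at 2-fold in 10% of cells. CTFs, CBFs1 and CBFs2 were named by a relative score. Markers of the type had to lie on average within 2-fold of their highest fibroblast cluster and 2-fold ahead of the next type. The markers were listed first and the naming rule was set after the clusters were seen. A sub-cluster also needed a marker of its name among its 10 leading genes. Values were computed in Python 3.11.15 (scanpy 1.11.5, scipy 1.17.1, numpy 2.4.6). The ratio step was tested on simulated data. Scrublet called 7 (0.0934%) and 5 (0.113%) cells, too few for the caller to have worked, so doublets were kept and the 5% with the highest scores were left out in an alternative.

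Genes were counted at a class mean of 0.05 and called at 2-fold. Genes named are the 6 PDGF genes, list genes called the same way in both libraries, the gene with the largest mean of each list in each main class, and the 5 genes most like each PDGF gene (highest class mean of at least 0.2). One muscle sub-cluster and one gene most like Pdgfa are not reported here. The genes and lists were chosen with earlier results of these data known. Alternatives changed the resolution, components, normalization, cell filters, depth, measure and classes.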

Additional observations from a re-analysis of the deposited data

How the results depend on the processing

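Of 285 values under an alternative, 235 stayed within the interval of the value given or within 1.5 times a count, 50 moved and 0 reversed. Leaving out cells above 10% mitochondrial counts gave Pdgfa log2 ratios of -2.04 (endothelium over epithelium) and -0.10 (muscle over epithelium), Pdgfb 4.62, Pdgfra -3.16 (muscle over CBFs-like) and shares of 43.4% (Pdgfa, epithelium) and 76.4% (Pdgfc, muscle). Thinning to 2000 gave Pdgfd 4.65 (endothelium over epithelium), Pdgfra 1.96 (CTFs-like over CBFs-like) and shares of 19.1% (Pdgfa, epithelium), 22.2% (Pdgfb, endothelium), 26.2% (Pdgfc, muscle), 6.89% (Pdgfd, CBFs-like), 81.8% (Pdgfra, CTFs-like), 70.3% (Pdgfrb, pericyte-like) and, in reporter CTFs-like cells, 47.4% (Pdgfra) and 11.0% (Pdgfrb). Pooling counts gave Pdgfa -2.06 and -0.46, Pdgfra 1.96 and Pdgfrb 3.09 (pericyte-like over CBFs-like). Means of log values, a compressed scale by construction, gave Pdgfa -0.62, Pdgfb 0.71 and Pdgfd 0.25 (endothelium over epithelium), Pdgfa -0.21, Pdgfb -0.029, Pdgfc 1.01 and Pdgfd 0.11 (muscle over epithelium), Pdgfra 1.57 and, in the reporter, 0.58 (CTFs-like over CBFs-like), Pdgfra -1.34 and Pdgfrb -0.31 (muscle over CBFs-like), and -1.37 and 1.87 (pericyte-like over CBFs-like). A resolution of 0.8 gave Pdgfra 1.98, 15 components shares of 50.4% (Pdgfa) and 55.5% (Pdgfb), and log-normalization 50.2% (Pdgfa). Against CBFs1-like cells alone Pdgfra was 2.25 and 1.99 (reporter), and against CBFs2-like cells alone 1.32 and 1.32, with Pdgfrb 0.31 and 0.75 and 1939 genes called in the reporter. A class mean of at least 0.2 left 786 called genes of 1444, and 412 of 1046 in the reporter. Chosen after seeing the data, leaving out the top 5% of doublet scores gave Pdgfra -5.54 (muscle over CBFs-like), and leaving out mixed sub-clusters -6.32, with Pdgfc at 7.18 and 72.7%. The cause of the other moves was not tested.

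No paired analysis was possible because each genotype is 1 library and no result comes from a test. Depth limits the shares, most of all in the reporter library, and a corrected count above 0 is not always a molecule read in that cell.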

Other observations

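Related receptor kinases of the same class III family followed other cells. Kit, the stem cell factor receptor, had a mean of 0.527 in wild-type epithelial cells with 26.7% of cells above 0, against 0.0136 in the endothelium and 0.00211 in the muscle. Its ligand gene Kitl had 2.58 in blood endothelial-like, 1.20 in pericyte-like and 0.720 in epithelial cells. Csf1, the ligand of the macrophage receptor Csf1r, had means of 1.52 (CBFs-like), 1.5 (CTFs-like) and 1.18 (smooth muscle-like). Csf1r was above 0 in at most 1.69% of any named class of the CD45-negative sort, and Flt3 in at most 0.169%. Between CTFs-like and CBFs-like cells, 0 of 3 counted genes of this family were called in the wild-type library and 1 of 3, Flt3l (log2 ratio -1.26), in the reporter library, where it was named after its value was seen. Beside these stand 14.4% and 14.6% of all counted genes.

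Neighbours of Pdgfra on chromosome 5 were also read. Kdr, a VEGF receptor gene 734.6 kb away, had a mean of 5.73 in the blood endothelium and no more than 0.0763 in pericyte-like, muscle, fibroblast, glia-like and epithelial cells, unlike Pdgfra. Chic2, 107.5 kb away, had a CTFs-like mean of 1.91 and a CBFs-like mean of 1.12 (log2 ratio 0.77, and 0.57 in the reporter library), short of 2-fold, and Fip1l1, 553.5 kb away, 0.77 and 1.18. Of the neighbours counted, 1 of 3 was called higher in CTFs-like cells of the wild-type library, Lnx1 (mean 0.0648 against 0.00609), and 1 of 2 in the reporter library, Fip1l1. Of all counted genes, 5.83% and 7.52% were called higher in these libraries.

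Some wild-type clusters fell under no name. In 101 cells with pericyte and endothelial markers together, 6 of 7 and 7 of 8 above 0 in most cells, with a median of 3849 genes per cell, Pdgfb (mean 1.26), Pdgfrb (3.88) and Pdgfa (1.33) were all present, and Pdgfra was at 0.109. In 485 cells led by haemoglobin genes Pdgfa had a mean of 0.476 with 18.1% of cells above 0 (14.8% to 21.9%). In 41 immune-like cells, below the size of a class, Pdgfb had a mean of 0.317. A lymphatic endothelial-like cluster of 45 cells, seen at a resolution of 0.8, had Pdgfa in 17.8% (8% to 32.1%), Pdgfb in 2.22% and Pdgfrb in 0 of its cells, which allows up to 6.67%.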
